A study of Mus musculus with 12 samples.

Results

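The comparison of E11.5 with E10.5 sets 2 successive days of pancreatic progenitors in the mouse embryo side by side. Its members are the 6 libraries whose titles name embryonic day E10.5 or E11.5, 3 per stage, out of 12 small RNA libraries in the series. Both stages are labelled as Pdx1-Cre, tdtomato+ cells of the pancreas. Pdx1-Cre is a transgene that places Cre recombinase under the Pdx1 promoter, active in pancreas and duodenum, and Cre switches on the red fluorescent reporter tdTomato, so the sort recovers cells that expressed the transgene and their descendants, duodenal cells among them. Per the study's methods the trunk was dissociated, tdTomato cells were sorted into Trizol LS, and males with 1 mir-302 allele replaced by eGFP entered the lineage crosses. The mir-302 genotype of the sorted embryos was not given in the labels. How many embryos made up a library was not given there either. The p-values of the fits thus measure a spread between libraries that may be in part technical. That spread was estimated over all 12 libraries of the series. All 1053 miRNA entries of the count table were considered, and 571 of them passed the filter on low counts.

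A microRNA (miRNA) is cut from a hairpin precursor, which can release a mature RNA from each of its arms, named 5p and 3p. The mature RNA guides silencing of messenger RNAs that pair with its seed, bases 2 to 8, so miRNAs with 1 seed are expected to share targets. In the embryonic pancreas miR-375 and miR-7 are associated with the islet lineage, the miR-200 family with epithelial identity, let-7 with the loss of embryonic programmes as tissues mature, and the miR-302 and miR-290 clusters with pluripotent cells and the early embryo.

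The sequences below are those on which the results turn. Mature sequences are from RefSeq (GRCm38.p6), 5′ to 3′, with the seed in capitals. The first set carries the let-7 seed and the seeds of its cluster partners miR-99 and miR-125, whose sums lay higher in every E11.5 library without being called.
let-7c-5p: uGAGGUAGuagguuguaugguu
let-7e-5p: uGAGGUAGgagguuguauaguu
let-7a-5p: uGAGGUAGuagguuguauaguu
let-7b-5p: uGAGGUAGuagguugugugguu
miR-125a-5p: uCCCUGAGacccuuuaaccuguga
miR-125b-5p: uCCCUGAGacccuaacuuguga
miR-99b-5p: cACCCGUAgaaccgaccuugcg
miR-99a-5p: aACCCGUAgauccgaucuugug
The second set holds members of the miR-302 cluster and of the miR-23/27 clusters whose mean levels were lower at E11.5, beside a paralogue whose level was not.
miR-302b-3p: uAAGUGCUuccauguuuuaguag
miR-302d-3p: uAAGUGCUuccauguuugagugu
miR-27a-3p: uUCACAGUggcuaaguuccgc
miR-27b-3p: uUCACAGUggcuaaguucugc
The third set holds 5 of the 13 entries whose levels were bounded within 2-fold.
miR-92a-3p: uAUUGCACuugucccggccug
miR-182-5p: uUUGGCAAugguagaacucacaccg
miR-183-5p: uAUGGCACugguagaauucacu
miR-7a-5p: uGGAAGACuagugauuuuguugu
miR-26a-5p: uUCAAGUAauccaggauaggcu
The last pair are the arms of the miR-342 hairpin, whose ratio was called between the stages, a call lost in most alternative fits.
miR-342-5p: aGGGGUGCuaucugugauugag
miR-342-3p: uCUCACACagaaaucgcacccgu

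The libraries differed in depth between the stages without overlap. The E10.5 libraries held 133435 to 267978 counts and the E11.5 libraries 417743 to 1103383. An entry without counts could have reached 11.49 to 25.92 CPM at E10.5 (CPM, counts scaled to a common library total with TMM factors, which align the bulk of the entries between libraries) but no more than 6.879 CPM in the deeper E11.5 libraries, the levels of 3 counts. Counts clustered at a low level and again at a higher one, called here the second count level, which was worth 326 to 485.9 CPM in the E10.5 libraries and 72.51 to 136.1 CPM in those of E11.5. An E10.5 library held reads of 436 to 548 entries and an E11.5 library those of 607 to 634. The library names carry a number that is shared within a stage and differs between the stages, so depth, any batch which that number marks and stage cannot be told apart.

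To ask which miRNAs differed as the progenitors passed from E10.5 to E11.5, the edgeR quasi-likelihood test was applied to the counts. Few entries were called, and 9 of the 10 most abundant entries were bounded within 2-fold. At an adjusted p under 0.05, 2 of 571 entries were called (0.35%). Both, miR-302a-3p and the precursor entry mir-6240, were lower at E11.5. A precursor entry holds reads assigned to a hairpin, and whether they include reads that the mature entries also count is not given in the sources used here. Levels of precursor entries, and their place among the abundant entries, are to be read with that limit. At an unadjusted p under 0.05 there were 61 entries, 36 higher and 25 lower at E11.5. The median log2 fold change of the 571 entries was 0.07, with 301 values above 0 and 268 below it. With the scaling factors of DESeq2 (RLE) this median was -0.15, a shift of -0.22. The 3 libraries of one stage all lay above the 3 of the other for 77 entries (13.5%), of which 56 were higher at E11.5 and 21 were lower. Of these 56 entries, 32 lay below 0.5 times the second count level in every E10.5 library. Among the 114 entries with a mean of at least 1000 CPM, the libraries did not overlap for 17 entries that were higher at E11.5 and 8 that were lower.

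How closely a difference was bounded depended on abundance. The 95% interval of the log2 fold change had a median width of 6.69, and for 220 entries it reached beyond 4-fold in both directions. Among the 114 entries of at least 1000 CPM the median width was 2.47 and 71 intervals lay within 4-fold of no change. Among the 457 entries below that level the median width was 8.03 and 3 intervals did. The 114 entries took 89.8 to 92.6% of the counts of each library, and 98 of them had a fitted change of less than 2-fold. For the rest, a missed threshold says little about whether their levels differed.

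**Figure D1:**
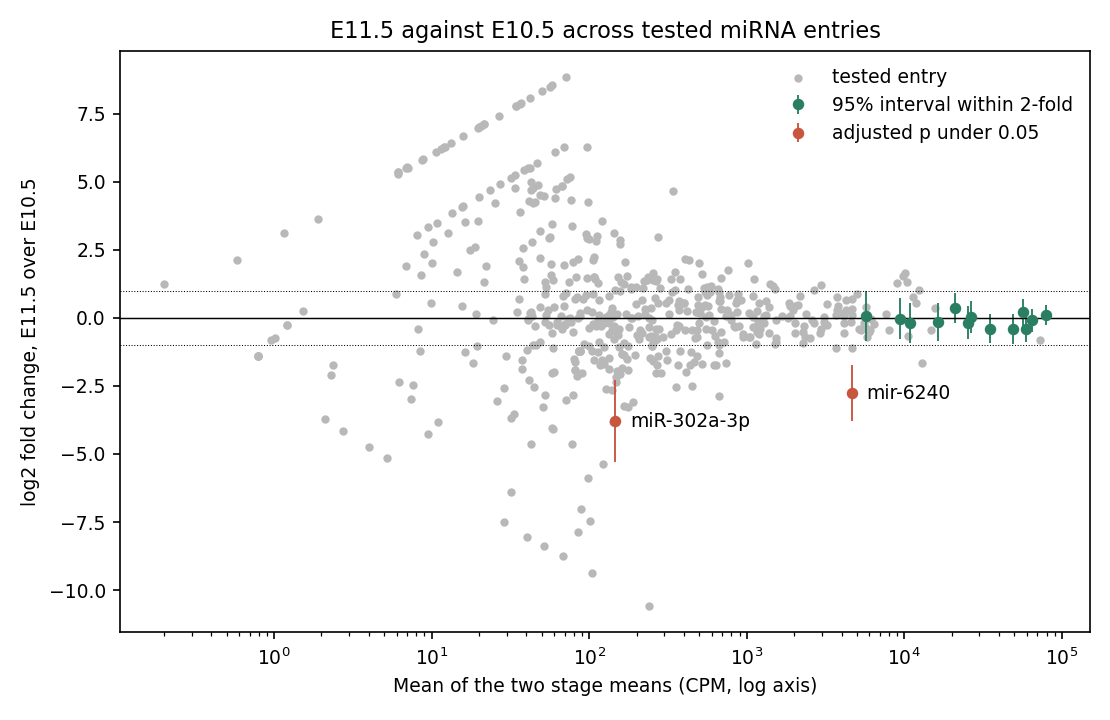
Log2 fold change of E11.5 over E10.5 (vertical) against the mean of the stage means in CPM (horizontal, log axis) for the tested entries with counts at either stage. Green points are the 13 entries whose 95% interval (bars) lay within 2-fold, red points the 2 called entries, and dotted lines mark 2-fold. The differences spread widely at low levels and narrow above 1000 CPM.

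**Figure D2:**
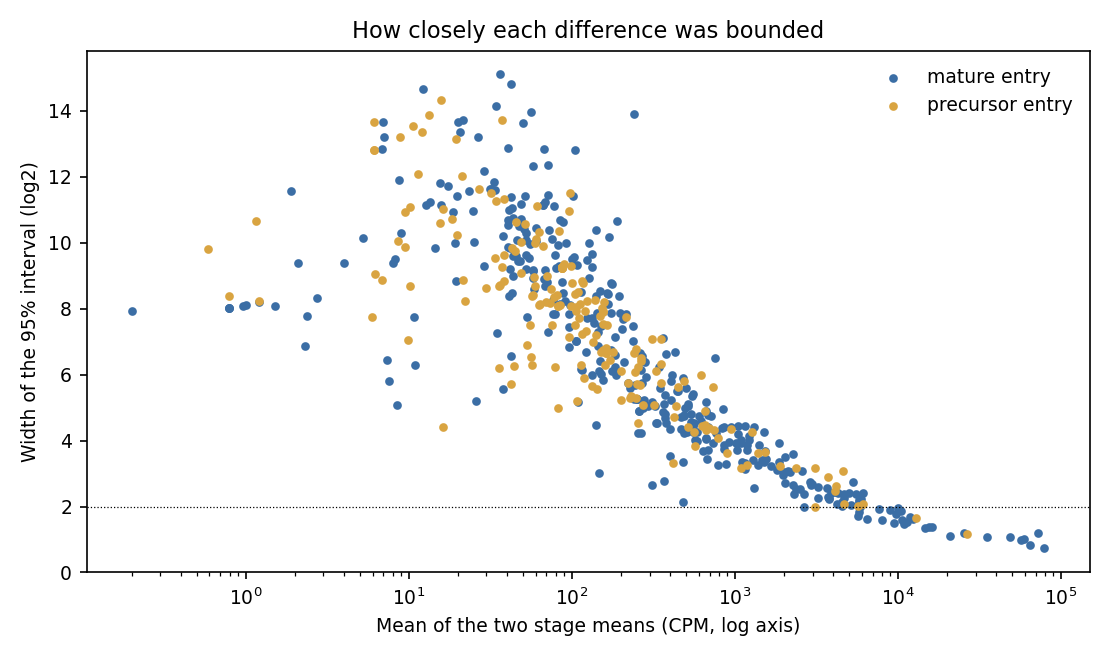
Width of the 95% interval of the log2 fold change (vertical) against the mean of the stage means in CPM (horizontal, log axis) for mature and precursor entries. An interval centred on 0 lies within 2-fold when its width is under 2 (dotted line). Only entries of high abundance reach that width.

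The closely bounded entries were abundant ones. For 13 of the 571 entries (2.28%) the whole 95% interval lay between a 2-fold decrease and a 2-fold increase, and each of the 13 was among the 114 entries of at least 1000 CPM. These 13 entries took 40.9 to 47.3% of the counts in every library. The narrowest interval was that of miR-92a-3p, a member of the miR-17-92 cluster that promotes proliferation. It held 17197, 9329 and 20837 counts at E10.5 (replicates 1 to 3) and 24445, 107047 and 75443 at E11.5, or 76040 ± 8843 and 81940 ± 22710 CPM (SD, n = 3 each). The stages overlapped, and the log2 fold change was 0.11 with an interval from -0.27 to 0.48.

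miR-375-3p, which restrains insulin secretion and is needed for a normal islet mass, held 18325, 9589 and 12454 counts at E10.5 and 18634, 68885 and 39550 at E11.5. This was 67280 ± 17200 against 51320 ± 10760 CPM, and the interval of its log2 fold change of -0.39 ran from -0.90 to 0.12. The precursor entry mir-375 held 1477, 759 and 765 counts at E10.5 and 853, 2552 and 2244 at E11.5. In CPM all 3 E11.5 libraries lay below those of E10.5 for the precursor (5071 to 2340 CPM on average), with a log2 fold change of -1.12 that was not called (adjusted p 0.576).

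miR-7a-5p, an islet-linked miRNA, was at 55700 ± 6962 against 41950 ± 9788 CPM, a log2 fold change of -0.41 with an interval from -0.95 to 0.13. E11.5 replicate 1 was the lowest of the 6 libraries (30700 CPM), and the other E11.5 libraries lay within or just below the E10.5 range. Summed with miR-7b-5p, which has the same seed, the change was -0.32 (interval -0.84 to 0.21). Of the 4 tested arms of miR-7a, miR-7b and miR-375, all had fitted changes below 0 with a median of -0.40, none was called, and 2 were held within 2-fold.

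The sensory and epithelial cluster of miR-183, miR-96 and miR-182 (chromosome 6, between genes) was abundant at both stages. miR-182-5p was at 66710 ± 11110 and 62860 ± 6404 CPM, a log2 fold change of -0.09 with an interval from -0.51 to 0.34. miR-183-5p was at 52410 ± 14820 and 60800 ± 9467 CPM, with a change of 0.21 (interval -0.28 to 0.71), and the precursor entry mir-183 had a change of 0.03 (interval -0.56 to 0.61). In all 3 the libraries of the stages overlapped. miR-26a-5p was bounded within 2-fold as well (0.37, interval -0.18 to 0.92), although its 3 E11.5 libraries (19950, 26850 and 24270 CPM) lay above those of E10.5 (18330, 18790 and 17970 CPM).

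The remaining held entries came from the imprinted Dlk1-Dio3 locus on chromosome 12, whose miRNAs are expressed from the maternal chromosome, and from widely expressed families. miR-379-5p changed by -0.40 (interval -0.93 to 0.13), miR-409-3p by -0.17 (-0.77 to 0.43), miR-382-5p by -0.15 (-0.84 to 0.53) and miR-411-5p by 0.06 (-0.85 to 0.98). miR-30a-5p changed by -0.03 (-0.78 to 0.72) and miR-24-3p by -0.18 (-0.92 to 0.56). Of the 69 tested Dlk1-Dio3 arms, 31 had values above 0 and 38 below it, with a median of -0.17 beside 0.07 for all entries, and none was called. The locus as a whole summed to 160200 to 222400 CPM in the E10.5 libraries and 138900 to 202700 CPM in the E11.5 libraries, ranges that overlapped. The number held depended on the scaling, and was 6 with RLE.

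The 10 most abundant entries of each library took 48.15, 54.83 and 47.13% of its counts at E10.5 and 43.49, 47.56 and 46.05% at E11.5. The means were 50.04 ± 4.18 and 45.7 ± 2.05% (n = 3 each), the ranges overlapped, and a two-sided exact permutation test gave p = 0.2, where 0.1 is the smallest value that 3 against 3 libraries allow.

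**Figure D3:**
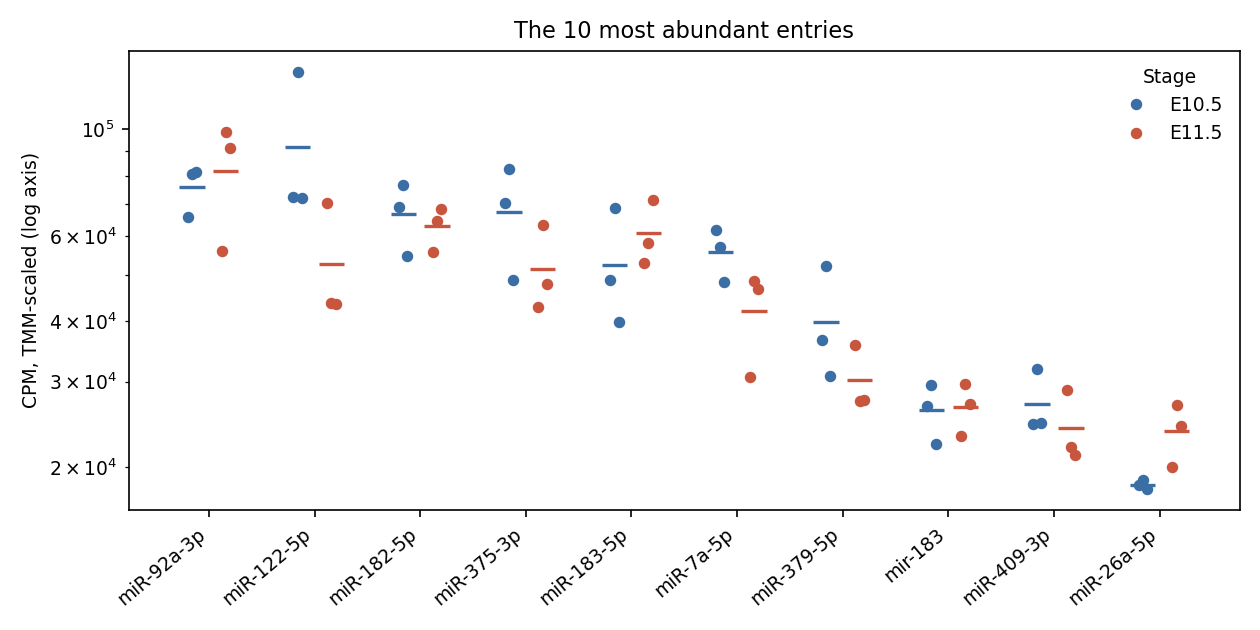
TMM-scaled CPM (vertical, log axis) in each library of the 10 entries with the highest mean over the 6 libraries. Points are libraries, blue for E10.5 and red for E11.5, and horizontal lines are stage means. On this scale the points of the stages intermingle except for miR-122-5p, lower at E11.5, and miR-26a-5p, higher at E11.5.

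Of these abundant entries, miR-122-5p, the principal miRNA of hepatocytes, was the only one whose E11.5 libraries all lay below those of E10.5 when all entries set the scaling. It held 18903, 15223 and 18410 counts at E10.5 and 30689, 47401 and 35854 at E11.5. In CPM this was 72380, 131500 and 72160 against 70370, 43620 and 43370, so the highest E11.5 library lay just under the lowest of E10.5. When the mature entries alone set the scaling, it was at 79910, 147000 and 84200 against 80080, 51350 and 51190 CPM, and the stages overlapped. With an adjusted p of 0.298 the difference (log2 fold change -0.81, standard error, SE, 0.29) was not called. As a mark of liver cells, which neighbour the pancreatic bud, its part in other differences was not tested.

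The let-7 family, whose members repress growth and stem cell genes such as Lin28 and Hmga2, had the lowest adjusted p among the seed sums of more than 1 member. Counts were summed over mature entries with 1 seed, which gave 308 features, of which 1 was called (0.325%), 27 lay higher at E11.5 without overlap and 11 lower (38, or 12.3%). The CPM of seed sums are scaled over mature entries alone and so run higher than those of single entries. The 9 entries with the let-7 seed summed to 4883, 2613 and 7473 counts at E10.5 and 25492, 49692 and 42474 at E11.5. This was 26680 ± 6884 against 60330 ± 6349 CPM (SD, n = 3 each), with all 3 E11.5 libraries above those of E10.5. The log2 fold change was 1.18 (SE 0.29, interval 0.58 to 1.77) with an adjusted p of 0.0547, just outside the threshold. Apart from fits that left out 1 library, the sum was called in 6 of 9 alternative fits. Its change ran from 0.97 to 1.21 over the 9 (adjusted p 3.60e-04 to 0.261). The 9 include a fit of the E10.5 and E11.5 libraries alone.

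Within the family the fitted differences varied between members. let-7c-5p held 1090, 684 and 1233 counts at E10.5 and 6344, 15212 and 12600 at E11.5, or 4972 ± 877 against 14600 ± 624 CPM (log2 fold change 1.55, SE 0.43, adjusted p 0.202). let-7e-5p held 1447, 735 and 1583 counts at E10.5 and 8414, 12306 and 11688 at E11.5, or 6032 ± 432 against 14920 ± 4042 CPM (1.31, SE 0.45, adjusted p 0.298). let-7a-5p held 1191, 354 and 2044 counts at E10.5 and 5886, 12678 and 10581 at E11.5, or 5210 ± 2539 against 12650 ± 925 CPM (1.28, SE 0.46, adjusted p 0.298). For each of the 3 members, and for let-7f-5p (0.65) and let-7i-5p (2.12), all E11.5 libraries lay above all E10.5 libraries.

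let-7b-5p did not share that order. It was at 1306, 2523 and 5683 CPM at E10.5 and at 2146, 1485 and 2028 CPM at E11.5, and its fitted change was -0.75 (interval -2.01 to 0.51). The stages overlapped, since E10.5 replicate 1 was lower than any E11.5 library, while E10.5 replicates 2 and 3 were higher than all of them. let-7g-5p (2.03) overlapped as well, with 15.3 CPM in E10.5 replicate 1 and 843 CPM in replicate 3. These mature RNAs differ from let-7a-5p at 1 to 4 positions, 2 in the case of let-7b-5p, so the counting could split reads among them, and the family sum is not affected by such a split. Of the 10 tested let-7 arms, 8 had fitted changes above 0, with a median of 1.43, and none was called. The precursor entry let-7c-1 held 6, 2 and 12 counts at E10.5 and 176, 172 and 175 at E11.5 (3.11, SE 1.34, adjusted p 0.408).

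The genomic partners of let-7e on chromosome 17 had fitted differences in the same direction. Mir99b, Mirlet7e and Mir125a lie together within 17830194 to 17830879 of chromosome 17 (GRCm38.p6, plus strand), Mir99b and Mirlet7e in an intron and Mir125a in an exon of Spaca6. miR-125a-5p, which like let-7 targets Lin28, held 1965, 288 and 1142 counts at E10.5 and 5922, 16905 and 14013 at E11.5. Its level was 4829 ± 2536 against 15360 ± 1695 CPM (log2 fold change 1.67, SE 0.47, adjusted p 0.202). miR-99b-5p held 2619, 655 and 2314 counts at E10.5 and 5446, 20712 and 15194 at E11.5, or 8252 ± 2296 against 16640 ± 3613 CPM (1.01, SE 0.39, adjusted p 0.368), again without overlap.

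The paralogues on other chromosomes, genomic partners of let-7c among them, had smaller fitted differences. Mir99a, Mirlet7c-1 and Mir125b-2 all lie in an intron of Mir99ahg on chromosome 16. miR-99a-5p, from an intron of Mir99ahg on chromosome 16, was at 1521 ± 574 and 2208 ± 546 CPM (0.54, interval -1.43 to 2.51). miR-125b-5p, from chromosomes 9 and 16, was at 1051 ± 415 and 1262 ± 170 CPM (0.26, interval -1.40 to 1.93), and miR-100-5p, from chromosome 9, was at 545 ± 413 and 559 ± 88.5 CPM (0.03, interval -2.67 to 2.74). In all 3 the stages overlapped. The counts of miR-99b-5p and miR-125a-5p together were 4.57, 3.24 and 4.52 times those of the 3 paralogues in the E10.5 libraries, and 7.27, 8.49 and 7.99 times in the E11.5 libraries. This ratio, which needs no scaling between libraries, was formed after the values were seen and was not tested.

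**Figure D4:**
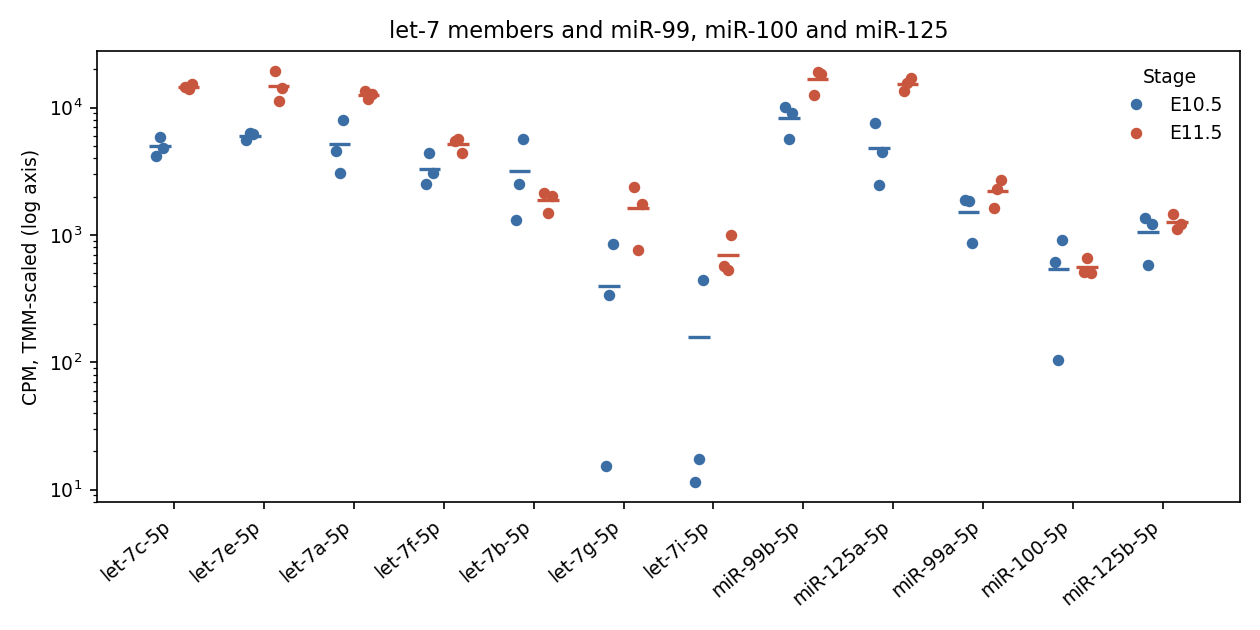
TMM-scaled CPM (vertical, log axis) in each library of 7 let-7 members and of miR-99, miR-100 and miR-125 entries. Points are libraries, blue for E10.5 and red for E11.5, and lines are stage means. The red points stand clear of the blue for let-7c-5p, let-7e-5p, let-7a-5p, let-7f-5p, let-7i-5p, miR-99b-5p and miR-125a-5p, and overlap them for the others.

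By seed, the miR-125 sum (miR-125a-5p, miR-351-5p and miR-125b-5p) was 9173 ± 3553 against 22290 ± 2484 CPM (log2 fold change 1.28, SE 0.36, adjusted p 0.107). The miR-99 sum (miR-99b-5p, miR-99a-5p and miR-100-5p) was 11650 ± 2801 and 22680 ± 5236 CPM (0.96, SE 0.37, adjusted p 0.24). Both sums were above all E10.5 libraries in all 3 E11.5 libraries, and neither was called. Of the same 9 alternative fits, 4 called the miR-125 sum (adjusted p 0.00669 to 0.215 over the 9) and 1 called the miR-99 sum (0.0332 to 0.469).

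The miR-200 family, which maintains epithelial character by repressing Zeb1 and Zeb2, was also higher in part. The sum of miR-200b-3p, miR-200c-3p and miR-429-3p was 24410, 16940 and 25880 CPM at E10.5 and 25960, 44830 and 44140 CPM at E11.5. E11.5 replicate 1 lay barely above the highest E10.5 library, and the difference missed the threshold (log2 fold change 0.77, SE 0.28, adjusted p 0.238). miR-429-3p (1.23) and miR-200c-3p (0.77) were higher without overlap, and miR-200b-3p (0.56) overlapped. The other seed of the family, of miR-200a-3p and miR-141-3p, had a change of 0.21 (adjusted p 0.965), with overlapping stages. Of the 7 tested arms 6 had values above 0, with a median of 0.77.

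Further families of high abundance were bounded when summed. The 12 held seed families included that of miR-92a and miR-25 (96320 ± 11770 and 108500 ± 31920 CPM, change 0.17, interval -0.20 to 0.54) and that of miR-21a-5p (change -0.19, interval -0.95 to 0.58). The sum of miR-30a-5p, miR-30e-5p, miR-30c-5p and miR-384-5p was held as well (25410 ± 2911 and 24370 ± 3651 CPM, change -0.06, interval -0.62 to 0.50). miR-30d-5p and miR-30b-5p had no reference sequence and were not in that sum. miR-30d-5p was higher without overlap (15380 ± 2389 and 20440 ± 2205 CPM, change 0.41, interval -0.27 to 1.09). miR-30b-5p was lower without overlap (851 ± 335.2 and 157.6 ± 206.8 CPM, change -2.43, interval -5.20 to 0.34). The sum of miR-26a-5p and miR-26b-5p was 24710 ± 1723 and 35250 ± 5534 CPM, with all E11.5 libraries above those of E10.5, a change of 0.51 (interval -0.01 to 1.03) and an adjusted p of 0.46. Arms of the miR-17-92 cluster and its paralogues were spread on both sides of 0, with 11 of the 20 tested above it, a median of 0.15 and no call. The same held for the miR-15, miR-16, miR-322 and miR-503 list (5 of 9 above 0, median 0.13), which is tied to the cell cycle, and for the Sfmbt2 intronic cluster (9 of 20 above 0, median -0.10).

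**Figure D5:**
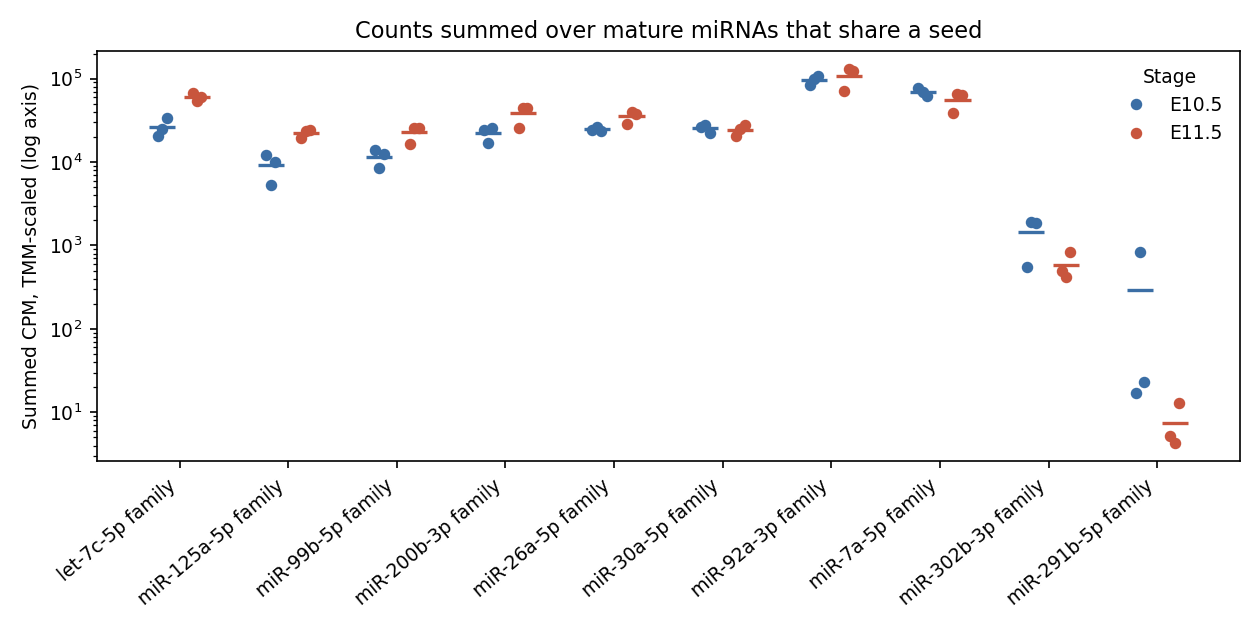
Summed TMM-scaled CPM (vertical, log axis) in each library for 10 groups of mature miRNAs that share a seed, each named by its leading member. Points are libraries, blue for E10.5 and red for E11.5, and lines are stage means. The let-7, miR-125a, miR-99b, miR-200b and miR-26a groups lie higher at E11.5 in all 3 libraries, the miR-291b group lies lower, and the others overlap. Entries without a reference sequence, among them miR-302a-3p and miR-30d-5p, are not in these sums.

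Both called entries fell, miR-302a-3p of the miR-302 cluster and the precursor entry mir-6240. miR-302a-3p held 110, 22 and 54 counts at E10.5 and 5, 21 and 23 at E11.5, in deeper libraries. Its level fell from 274 ± 127.7 to 19.5 ± 8.18 CPM (SD, n = 3 each), with no overlap, a log2 fold change of -3.78 (SE 0.72) and an adjusted p of 0.00863. The reference held no sequence for it, so it was summed with no other entry. As a feature of its own among the seed families it was the single call (-3.72, adjusted p 0.00493). Its E10.5 counts were near or below the second count level of those libraries, 56.2 to 95.5 counts. Apart from fits that left out 1 library, the call was kept in 6 of 9 alternative fits. It was lost with limma voom (adjusted p 0.332), on the scale of the second count level (0.136) and with only the 6 libraries of these stages in the fit (0.733). Leaving out E11.5 replicate 1 (-3.43, adjusted p 0.0971) or E8.5 replicate 2 (-3.72, adjusted p 0.0553) ended it as well.

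The other members of the cluster, which lies in an intron of Larp7 on the opposite strand (chromosome 3, 127545228 to 127545807), were lower on average and not called. miR-302d-3p was at 294.8, 372 and 1023 CPM at E10.5 and at 220, 40.5 and 249 CPM at E11.5, lower without overlap (-1.73, SE 0.67, adjusted p 0.368). miR-302b-3p was at 191.5, 1348 and 560.5 CPM at E10.5 and at 209, 211 and 373 CPM at E11.5, with overlapping levels (-1.40, SE 0.52, adjusted p 0.326). miR-302c-3p held 59, 1 and 3 counts at E10.5 and 1, 1 and 5 at E11.5, and most of its E10.5 level came from replicate 1.

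Summed over its 9 entries the cluster stood at 1658, 1944 and 1823 CPM at E10.5 and 443, 276 and 659 CPM at E11.5. Every E10.5 library was thus well above the highest of E11.5, but the arms behind the sum differed between libraries. miR-302d-5p (-7.86, adjusted p 0.298) made up 97.08% of a seed sum with miR-302b-5p and miR-302c-5p. That sum held 132, 2 and 1 counts at E10.5 and 0, 1 and 1 at E11.5, so its level came chiefly from E10.5 replicate 1. miR-367-3p was not detected in any of the 6 libraries. The other 7 of the 8 tested arms had fitted changes below 0, 5 were lower without overlap and 1 was called. Over all 571 entries tested, 21 were lower without overlap and 2 were called. The median of the 8 arms was -3.12 beside 0.07 for all entries. The mir-302 genotype of the embryos was not given in the labels, and its part in this difference was not tested.

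The miR-290 to miR-295 cluster of pluripotent cells showed low and uneven counts. Its 12 entries summed to 728, 1676 and 1372 CPM at E10.5 and 147, 328.5 and 588 CPM at E11.5, again without overlap. Of 11 tested arms 10 had values below 0, with a median of -2.34, and none was called. The sum of miR-291b-5p and miR-291a-5p (4, 86 and 5 counts at E10.5, then 2, 4 and 9) had a change of -5.19 (SE 1.37, adjusted p 0.0777) that came chiefly from E10.5 replicate 2. Apart from fits that left out 1 library, 2 of the 6 alternative fits that tested this sum called it. The shared seed of miR-302b-3p, miR-302d-3p and 3 arms of the miR-290 cluster had a change of -1.31 (adjusted p 0.177) with overlapping stages. Of 9 such alternative fits 1, that with DESeq2, called this seed sum. miR-302a-3p, for which the reference held no sequence, was left out of this sum. The overlap is thus that of the members summed, not of all miR-302 3p arms.

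The precursor entry mir-6240 (chromosome 5, 114851948 to 114852064, plus strand, between genes) was at 5529, 11800 and 7027 CPM at E10.5 and at 1069, 777 and 1780 CPM at E11.5. It fell from 8120 ± 3276 to 1208 ± 516 CPM without overlap (log2 fold change -2.75, SE 0.50, adjusted p 0.00863). The call was kept in all 12 fits that left out 1 library (-3.15 to -2.33) and in all 9 other alternative fits. mir-6236, also a precursor entry, held 4005, 2468 and 5682 counts at E10.5 and 1313, 7298 and 7446 at E11.5, and was lower in CPM without overlap (-1.65, SE 0.40, adjusted p 0.0814). In the 6 libraries miR-330-3p took 100% of the counts of the seed it shares with the mature entry miR-6240. No counts were thus assigned to that mature entry, and the mir-6240 call has none beside it. For mir-6236, whether reads of mature arms are counted too is unknown. The levels of both precursor entries are not those of mature miRNAs. Reads of precursor entries made up 12.7 to 13.6% of the E10.5 counts but 10.2 to 10.3% of those of E11.5.

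miR-27a-3p and miR-23a-3p, neighbours on chromosome 8 (84208518 to 84208758, between genes), were both lower at E11.5 without overlap. miR-27a-3p was at 777, 925 and 1803 CPM at E10.5 and at 89.4, 144.5 and 242 CPM at E11.5, that is 1168 ± 555 against 159 ± 77.2 CPM (-2.88, SE 0.98, adjusted p 0.298). miR-23a-3p was at 1118, 726 and 1101 CPM, then at 387.5, 168 and 324 CPM (-1.74, SE 0.89, adjusted p 0.503). Their paralogues were not lower, with fitted changes of 0.33 for miR-27b-3p (SE 0.56) and 0.78 for miR-23b-3p (SE 0.55). As miR-27b-3p took 92.95% of the counts of the seed shared with miR-27a-3p, the sum of both changed by 0.06 (5997 ± 930 and 6255 ± 1320 CPM). miR-27a-3p and miR-27b-3p are near-identical, and the counting could split reads between them.

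Entries with the largest fitted increases had few or no counts at E10.5. Of 17 higher entries that met the naming rule (unadjusted p under 0.05, a mean of at least 100 CPM at a stage and no overlap), the first 4 by size had no counts in any E10.5 library. At E11.5 miR-331-5p held 19, 43 and 286 counts, miR-1843a-3p held 13, 216 and 98, and miR-673-3p held 90, 60 and 33, while miR-505-5p was at 71.1, 0.920 and 265 CPM. Most of the signal of miR-331-5p and miR-505-5p came from replicate 3. The E11.5 means of the 4 entries, from 100.5 CPM upwards, were all below what the second count level was worth at E10.5 (326 to 485.9 CPM), so absence at E10.5 was not resolved at that depth and no fold is given. Over all 1053 entries, 17 were detected in each E11.5 library and in no E10.5 library, and 2 the other way round.

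Next in size were miR-299b-3p (6.28), miR-3095-3p (6.08), miR-342-5p (4.67), miR-299a-3p (4.35), let-7c-1 (3.11) and miR-1247-5p (2.97), with adjusted p from 0.298 to 0.449. miR-299a-3p, miR-299b-3p, miR-673-3p and miR-1247-5p come from the Dlk1-Dio3 region. Mir299a and Mir299b lie on opposite strands of the same place, so their reads may be shared. miR-1247-5p, from an exon of Dio3os, was at 7.66, 17.3 and 157 CPM at E10.5 and at 651, 271 and 533.5 CPM at E11.5, with every E11.5 library higher.

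The arms of 34 hairpins were abundant enough to compare within a library, which needs no scaling. In 23 of them the same arm was higher in all 6 libraries, the 5p arm in 10 and the 3p arm in 13. limma called 1 of the 34 ratios (2.94%), that of miR-342, which is transcribed from an intron of Evl on chromosome 12. miR-342-5p held 1, 1 and 16 counts at E10.5 and 159, 888 and 660 at E11.5, and miR-342-3p held 304, 63 and 773, then 934, 3837 and 2226. The log2 ratio of 5p to 3p averaged -6.21 ± 1.27 in the E10.5 libraries and -2.14 ± 0.40 in those of E11.5 (SD, n = 3), a difference of 4.07 (SE 1.04, adjusted p 0.0482). The 3p arm was the higher one in all 6 libraries. There were few 5p counts at E10.5, and the call was lost in 10 of the 12 fits that left out 1 library. It was also lost in the 4 other alternative fits that could test it (adjusted p 0.0790 to 0.181).

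The miR-10 and miR-196 miRNAs of the Hox clusters, which mark position along the body axis, were set apart by a single library. miR-196a-5p held 6, 59 and 129 counts at E10.5 and 1526, 4 and 9 at E11.5. miR-10b-5p held 177, 253 and 513 counts at E10.5 and 2045, 339 and 140 at E11.5. In both, E11.5 replicate 1 stood far above the other E11.5 libraries, which in CPM lay below every E10.5 library. The fitted changes of 1.76 for miR-196a-5p and 0.08 for miR-10b-5p turned to -5.47 and -2.65 without E11.5 replicate 1 (adjusted p 0.348 and 0.0971). miR-10a-5p (1198, 1771 and 2320 CPM at E10.5, then 5098, 2602 and 3052) was higher in all 3 E11.5 libraries (1.02, adjusted p 0.449).

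The summed levels of the marker lists of other cell types overlapped between the stages except those of liver, gut and nerve. The mesenchymal list (miR-143, miR-145a, miR-199 and miR-214) summed to 3776 to 13610 CPM in the E10.5 libraries, then 4341 to 9420 CPM, and the muscle list to 268 to 3543 and 283 to 1721 CPM. The erythroid list was at 510 to 1210 and 635 to 1346 CPM, the endothelial list at 241 to 432 and 34.4 to 426 CPM, and the leukocyte list at 68.9 to 384 and 11.47 to 208 CPM. The neural list was at 188 to 778 and 871 to 1034 CPM. Most of the neural sum at E11.5 was miR-128-3p (164.6, 553 and 380.2 CPM at E10.5, then 839, 707 and 896), the single one of its 5 tested members whose stages did not overlap, while miR-124-3p, a miRNA of neurons, held 0, 22 and 0 counts at E10.5 and 0, 0 and 1 at E11.5. The hepatic list, in effect miR-122-5p, was at 72160 to 131500 and 43490 to 70380 CPM, an order that the scaling over mature entries removed for miR-122-5p. The list of gut and liver (miR-192, miR-194 and miR-215) was at 207 to 613 CPM, then at 770.5 to 1086 CPM, although both of its tested members overlapped. With the scaling over mature entries, miR-194-5p was higher without overlap by a narrow margin (222.1 to 536.9 against 540.2 to 1166 CPM). miR-133a-3p of the muscle list and miR-142a-5p of the leukocyte list were at 0 in all 6 libraries. The epithelial miR-203 and miR-205 list overlapped (2376 to 5460 and 1931 to 3541 CPM). In bulk RNA, fewer cells of a type and less RNA per cell cannot be told apart, and the part of these cell types in the differences was not tested.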

How the data were processed

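Small RNA of fluorescence-sorted mouse cells was sequenced in 12 libraries, of which the 6 of E10.5 and E11.5 are compared. The authors deposited raw read counts per miRNA entry, made with the COMPSRA pipeline and STAR on mm10; the random adapter bases were not used to tell molecules apart, so PCR copies are counted, and detection limits cover counting error only. Tests were edgeR 4.0.16 quasi-likelihood tests (R 4.3.3; TMM factors, filterByExpr with a minimum count of 10, Benjamini-Hochberg adjustment over all features). All 12 libraries were fitted together by stage, and the common biological coefficient of variation was 1.19. Intervals are at 95%. CPM used TMM-scaled library sizes. Seed sums used RefSeq mature sequences, found for 541 of 633 mature entries; entries without one were tested singly. Arm ratios (0.5 counts added, mean of at least 50 counts per arm) were tested with limma 3.58.1. The script was tested on simulated data. Alternatives included RLE, DESeq2 1.42.0 and limma voom. Entries were named when called, abundant, narrowly bounded, listed, or largest in change by the rule given. The paralogue pairs and the Hox library were chosen after their values were seen. Members and lists were chosen with earlier results of these data known. Of entries above 100 counts, 47 had the same counts as another. Coordinates are GRCm38.p6, the build of mm10, with GENCODE vM21 annotation.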

Additional observations from a re-analysis of the deposited data

How the results depend on the processing

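The number of called entries was 2, and 8 with DESeq2 (2 higher, 6 lower), 5 without a filter on low counts, 1 with at least 10 counts in every library, 4 with only the E10.5 and E11.5 libraries (2 higher), 1 with mature entries alone and 6 on the scale of the second count level (4 higher). Leaving out 1 library gave 1 to 5, with 1 when E8.5 replicate 2 was dropped, 1 for E11.5 replicate 1, 4 for E9.5 replicate 1 and 5 for E9.5 replicate 3. The number held within 2-fold was 13, and 6 with RLE, 23 with limma voom, 27 with only the 6 libraries and 30 with the second count level, and 5 to 19 when 1 library was left out (8 for E10.5 replicate 1 and 5 for replicate 3, 6 for E11.5 replicate 2 and 7 for replicate 3). Called seed families numbered 1, and 2 with library size alone, 12 with DESeq2, 4 with limma voom, 4 without a filter, 0 with at least 10 counts in every library (9 at an unadjusted p under 0.05 in edgeR), 2 with only the 6 libraries and 3 with the second count level. Leaving out 1 library gave 0 to 5, with 0 without E11.5 replicate 1 (43 unadjusted), 2 when E8.5 replicate 1 was dropped, 4, 3 and 5 for E9.5 replicates 1, 2 and 3, and 3 each for replicates 1 and 3 of E10.5. The arm-ratio call became 0 in limma with a pseudocount of 5 (2 unadjusted), with arms of at least 10 (9 unadjusted) or 200 counts (0 unadjusted), and with only the 6 libraries (2 unadjusted), and 0 to 1 when 1 library was left out, where miR-342 remained called for E9.5 replicates 1 and 3 and a different hairpin was called for E11.5 replicate 1. Leaving out 1 library gave -2.65 to 0.50 for miR-10b-5p and -5.47 to 2.20 for miR-196a-5p, which both reversed without E11.5 replicate 1. Same-numbered replicates did not deviate together (correlations -0.04, 0.09 and 0.06), and with the replicate number as a block 3 entries, 2 seed families and 0 arm ratios (4 unadjusted) were called. At E10.5 depth, entries below the second count level were not resolved. Except where a setting is named here or beside a result, the cause of these shifts was not tested.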
